A study of Mus musculus with 12 samples.

Results

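The acyl-CoA thioesterase genes of the mouse, as listed for this description, were Acot1, Acot2, Acot3, Acot4, Acot5, Acot6, Acot7, Acot8, Acot12 and Acot13, 10 of the 55357 gene identifiers in each of 2 count tables. Each symbol matched 1 identifier. The family was chosen after Acot3 had been seen to be lower in the livers of esculetin-treated mice, so the members were selected on the measured liver contrast between esculetin and control. Their liver values are therefore given as a description without p-values. Which members the liver fit called is stated once beside the share of all genes called, with nothing read from it, and p-values are given for the macrophage cells and for the difference between control liver and control cells.

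Acyl-CoA thioesterases cut the bond between a fatty acyl group and coenzyme A, which releases a free fatty acid and free CoA. They work against the acyl-CoA synthetases, which make that bond, and so set how much activated fatty acid is present in the cytosol, mitochondria and peroxisomes. The type I enzymes, Acot1 to Acot6, have an alpha/beta-hydrolase fold and differ in where they act and in the acyl-CoAs they cut. The type II enzymes, which include Acot7, Acot8, Acot12 and Acot13, have a hotdog fold. In rodent liver several type I genes are known targets of PPAR-alpha, the nuclear receptor that turns on fatty acid oxidation in fasting and fat feeding.

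RNA was sequenced in 12 libraries in 4 groups of 3. The livers came from wild-type male C57BL6/J mice aged 8 to 9 weeks that all ate a control diet (10% of kcal from fat) for 4 days and then a high-fat diet (60%) for 3 days. During these 7 days they were gavaged with 2.5% Tween-80 (control) or esculetin (90 mg/kg/d), a coumarin made by plants, and the study states that each liver library pooled a pair of mice. The RAW264.7 cells, a mouse macrophage line, were all loaded for 24 h with 25 µg/mL DIL-oxLDL, a dye-labelled oxidized lipoprotein, with esculetin at 40 µg/mL or with its solvent. The sources used here do not say whether the 3 libraries of a cell group came from separate cultures, so p-values in the cells measure the spread between these libraries, which may be technical.

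Library totals ran from 14659876 to 20346460 counts in liver and from 13752842 to 20001959 in the cells. Values below are CPM, which are counts scaled to a library of 1000000 after TMM scaling within a table, and errors are SD over 3 libraries unless SE is written. The sum of 8 hepatocyte markers was 116859.5 to 137147 CPM in control livers and 109849.7 to 134877 CPM in esculetin livers, but at most 0.415 CPM in any cell library, where 7 of 7 macrophage markers had counts. In the cells those macrophage markers summed to 2206 to 2370 CPM in control and 4894 to 7393 CPM in esculetin libraries. The Kupffer cell markers summed to 287 to 335 CPM in control livers and 263 to 301 CPM in esculetin livers, and the blood markers to 47.2 to 637 and 92.7 to 308 CPM. The part of these differences in the results was not tested. Along the leading principal component of liver expression, which carried 39.9% of the variance, control replicate 1 stood apart (score -47.9, against -3.44 to 19.4 for the other 5). The liver log2 fold changes of Acot2, Acot3, Acot4 and Acot7 are also given without it. Those of the summed cluster and of the other gene lists include it and may depend on it.

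Acot1 to Acot6 lay in 1 cluster on chromosome 12 of GRCm39 (chr12:84034428-84158127, 123.7 kb), all on the + strand, in the order Acot2, Acot1, Acot4, Acot3, Acot5, Acot6. Acot3 spans chr12:84098918-84107176. The type II genes lie elsewhere, Acot7 at chr4:152262136-152356313 (+ strand), Acot8 at chr2:164631348-164647353 (- strand), Acot12 at chr13:91889396-91935688 (+ strand) and Acot13 at chr13:24998351-25015547 (- strand). The coding sequences of Acot1 to Acot6 are close copies. Acot1 and Acot2 were identical at 95.3% of aligned bases, Acot3 and Acot5 at 85.8%, and Acot3 and Acot4 at 75.3%. How alike the genes are decides whether a read can be given to 1 of them, so a stretch of the coding sequence where the 6 copies are most alike is shown first. Capitals mark bases that differ from Acot3. Over these 100 bases Acot1, Acot5 and Acot6 had the letters of Acot3, Acot2 differed at 5 bases and Acot4 at 2.
Acot1 (chr12:84056453-84056552, + strand): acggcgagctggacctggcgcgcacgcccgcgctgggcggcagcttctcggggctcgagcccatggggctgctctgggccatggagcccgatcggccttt
Acot2 (chr12:84034968-84035067, + strand): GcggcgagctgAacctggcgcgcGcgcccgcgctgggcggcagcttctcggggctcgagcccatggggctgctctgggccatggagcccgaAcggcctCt
Acot3 (chr12:84100428-84100527, + strand): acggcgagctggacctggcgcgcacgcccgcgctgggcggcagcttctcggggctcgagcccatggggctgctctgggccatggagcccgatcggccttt
Acot4 (chr12:84085454-84085553, + strand): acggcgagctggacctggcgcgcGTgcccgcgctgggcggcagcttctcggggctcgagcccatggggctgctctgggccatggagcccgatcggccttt
Acot5 (chr12:84116410-84116509, + strand): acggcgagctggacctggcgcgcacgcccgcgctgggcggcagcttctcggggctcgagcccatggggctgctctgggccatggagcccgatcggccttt
Acot6 (chr12:84147915-84148014, + strand): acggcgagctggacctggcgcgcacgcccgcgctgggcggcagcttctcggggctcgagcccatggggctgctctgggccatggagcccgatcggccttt

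The copies part further along. In the 100 coding bases where they are least alike, shown next with the same use of capitals, Acot4 and Acot5 each differed from Acot3 at 35 bases, Acot6 at 37, and Acot1 and Acot2 at 28. Acot1 and Acot2 had the same letters as each other there.
Acot1 (chr12:84063940-84064039, + strand): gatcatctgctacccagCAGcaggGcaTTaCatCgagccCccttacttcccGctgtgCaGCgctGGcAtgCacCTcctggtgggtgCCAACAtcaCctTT
Acot2 (chr12:84039662-84039761, + strand): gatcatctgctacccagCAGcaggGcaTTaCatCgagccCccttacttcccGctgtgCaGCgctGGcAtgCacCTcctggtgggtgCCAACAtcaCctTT
Acot3 (chr12:84105587-84105686, + strand): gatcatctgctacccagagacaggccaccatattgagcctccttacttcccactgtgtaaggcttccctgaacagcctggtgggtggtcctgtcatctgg
Acot4 (chr12:84090357-84090456, + strand): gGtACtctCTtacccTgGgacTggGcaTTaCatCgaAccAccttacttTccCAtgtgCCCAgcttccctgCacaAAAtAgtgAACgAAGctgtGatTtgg
Acot5 (chr12:84122470-84122569, + strand): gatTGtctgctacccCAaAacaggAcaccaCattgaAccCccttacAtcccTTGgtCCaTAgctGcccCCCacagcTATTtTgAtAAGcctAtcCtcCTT
Acot6 (chr12:84156100-84156199, + strand): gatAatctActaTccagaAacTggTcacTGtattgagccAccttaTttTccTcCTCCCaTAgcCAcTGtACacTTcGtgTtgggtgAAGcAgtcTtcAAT

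The study states reads of 150 bases per end. Of all windows of 150 bases in the longest transcript, the share with another exact place in the genome was 5.76% for Acot1, 6.30% for Acot2, 2.48% for Acot3, 3.36% for Acot5 and 0.288% for Acot6, and 0 windows of Acot4, Acot7, Acot8, Acot12 or Acot13 had one. A window across an exon junction is not continuous in the genome, so these shares can miss it. With windows found in a transcript of another gene added, overlapping genes included, the shares in the cluster were larger except for Acot5. They were 8.12% for Acot1, 9.27% for Acot2, 17.2% for Acot3, 12.7% for Acot4, 3.36% for Acot5 and 2.30% for Acot6. Outside it they were 51.8% for Acot8, 63.8% for Acot13, 1.05% for Acot12 and 0 for Acot7. How the counting treated reads with several places or genes is not given in the sources used here. The values of the cluster, Acot8, Acot12 and Acot13 are therefore uncertain as far as reads fell in such windows.

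Other annotated genes also overlap members. Gm49366, on the same strand, shares 20.3% of the exon bases of Acot3 and 6.18% of those of Acot4, and had 0 counts in all 12 libraries. How reads in exons shared by several genes were counted is not given in the sources used here. The 0 therefore does not show whether Gm49366 was expressed, or whether reads of Acot3 and Acot4 were left out there. The antisense RNA 4732463B04Rik shares 7.83% of the exon bases of Acot3 and 15.1% of those of Acot4, and had 8, 6 and 5 counts in control livers and 1, 4 and 0 in esculetin livers. Genes on the opposite strand share 49.4% of the exon bases of Acot8 (Snx21 and Zswim3) and 74.5% of those of Acot13 (BC005537 and Tdp2). Whether the counting used strand is not given in the sources used here, and without strand the reads of such partners cannot be told apart.

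In liver, the cluster genes Acot3, Acot4 and Acot2 were lower in every esculetin library than in any control library. Acot3 had a log2 fold change of -3.63 (SE 0.51), Acot4 of -1.10 (SE 0.24) and Acot2 of -0.78 (SE 0.22), beside a median of -0.02 over the 12813 genes tested. Acot1, Acot6 and the 4 type II genes overlapped between the groups, and Acot5 had 0 counts. Of the 9 members that passed the filter on low counts, 7 were below 0 and 2 above, with a median of -0.19. In bulk liver, fewer cells of a type and less RNA per cell cannot be told apart.

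Acot3 is a peroxisomal thioesterase that acts on long-chain acyl-CoAs. Control livers held 226, 139 and 82 counts of it and esculetin livers 6, 21 and 6. In CPM these were 13.9, 6.86 and 4.78 in control and 0.327, 1.36 and 0.388 in esculetin libraries, means of 8.51 ± 4.77 and 0.693 ± 0.582 (n = 3 each), a 12.4-fold difference in the fit. The control libraries spread over a wide range and the highest was replicate 1, yet the lowest control was above the highest esculetin library. Without control replicate 1 the log2 fold change was -3.09, and it ran from -4.57 to -3.09 as each of the 6 libraries was left out.

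Acot4 is the peroxisomal gene next to Acot3, and its enzyme is known for acting on succinyl-CoA and other dicarboxylic acyl-CoAs. Its 793, 635 and 406 counts in control livers and 259, 304 and 222 in esculetin livers gave 48.7, 31.3 and 23.7 CPM against 14.1, 19.7 and 14.4 CPM. The means were 34.6 ± 12.8 and 16.1 ± 3.18 CPM (n = 3 each), a 2.15-fold difference. Control replicate 1 was again the highest, and without it the log2 fold change was -0.775.

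Acot2 encodes the mitochondrial matrix enzyme of the cluster. It read 9.21, 6.56 and 7.81 CPM in control livers and 3.65, 4.61 and 5.50 CPM in esculetin livers, from 133 to 150 and from 67 to 85 counts. The means of 7.86 ± 1.33 and 4.59 ± 0.925 CPM (n = 3 each) differed 1.71-fold, and the log2 fold change was -0.646 without control replicate 1. Acot1, the cytosolic near-twin of Acot2, read 36.8, 49.7 and 29.8 CPM in control and 24.7, 36.4 and 28.4 CPM in esculetin livers, with a log2 fold change of -0.38 (SE 0.19). Its groups overlapped, and leaving out control replicate 2 moved it to -0.158.

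Acot6, whose peroxisomal enzyme is known for branched-chain substrates, was near the limit of detection, with 9, 16 and 8 counts in control livers and 14, 17 and 16 in esculetin livers. The log2 fold change was 0.65 (SE 0.41) and the groups overlapped. Acot5, a peroxisomal medium-chain thioesterase, had 0 counts in all 12 libraries, which allows up to 0.148 to 0.195 CPM in a liver library and 0.146 to 0.220 CPM in a cell library by counting error alone. No fold is given for it.

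**Figure D1:**
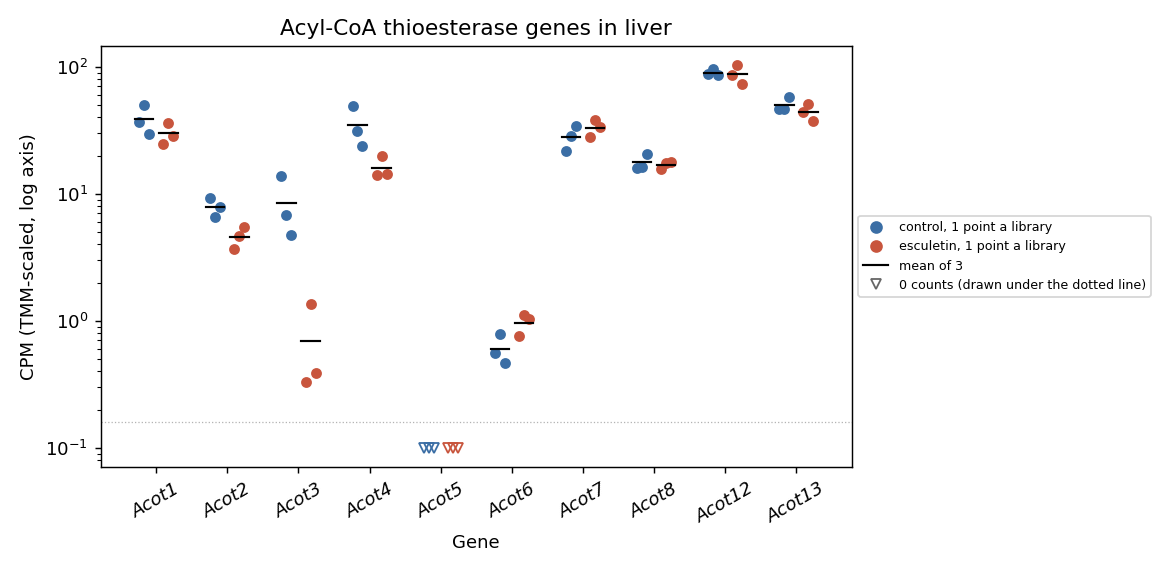
CPM (log axis) of each thioesterase gene in the 3 control and 3 esculetin liver libraries, with the group mean as a black line and libraries at 0 counts drawn as open triangles. The esculetin points of Acot2, Acot3 and Acot4 all lie below the control points, with the widest gap for Acot3 (0.327 to 1.36 against 4.78 to 13.9 CPM).

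The type II members were nearer to each other in the 2 liver groups. Acot7, a cytosolic enzyme best known from brain, read 21.6, 28.4 and 34.1 CPM in control and 27.8, 37.8 and 33.6 CPM in esculetin livers (log2 0.24, SE 0.17). Its lowest value was control replicate 1, without which the log2 fold change was 0.0841. Acot8, the peroxisomal type II enzyme of broad substrate range, read 15.7 to 20.6 CPM over all 6 livers (log2 -0.06, SE 0.15). Acot12, a cytosolic enzyme that hydrolyzes acetyl-CoA, read 73.8 to 103 CPM (log2 -0.03, SE 0.14). Acot13, also called Them2, acts on long-chain acyl-CoAs at mitochondria and lay between 37.1 and 57.7 CPM (log2 -0.19, SE 0.15).

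The edgeR quasi-likelihood fit of all liver genes called 11 of 12813 (0.0859%) at a Benjamini-Hochberg adjusted p-value under 0.05, 7 lower (0.0546%) and 4 higher (0.0312%). 1 of the 9 members tested was among them, Acot3, the gene whose value chose the family. Non-overlapping libraries were seen in the lower direction for 7.95% of the tested liver genes and in the higher direction for 6.52%, against 3 and 0 of the 9 members. Since the same contrast selected the members, nothing is read from these counts. Acot3 was no longer called by edgeR in fits that omitted control library 2, esculetin library 1 or esculetin library 3. In these 3 fits 0 genes were called in all, with 962, 769 and 624 genes at an unadjusted p under 0.05.

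Within the cluster, the largest falls, -3.63 for Acot3 and -1.10 for Acot4, were those of adjacent genes. On its other side Acot3 lies beside Acot5, which had 0 counts. Acot2 and Acot1, which are the closest copies, were 1.71-fold and 1.30-fold lower in the esculetin livers. Whether position bears on the values was not tested. With the counts of Acot1 to Acot6 summed to 1 feature, the log2 fold change in liver was -0.79 (SE 0.19). In control livers Acot3 made up 7.19% to 12.7% of the counts of the cluster, and in esculetin livers 0.750% to 2.16%. The share of Acot1 was 33.7% to 52.2% in control and 56.8% to 57.6% in esculetin livers. The 12.7% of Acot3 and the 33.7% of Acot1 were both those of control replicate 1. Of the 12 protein-coding neighbours within 250 kb, 7 were tested in liver, with log2 fold changes from -0.49 (Mideas, SE 0.24) to 0.21 (Riox1, SE 0.24) and a median of -0.00154.

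**Figure D2:**
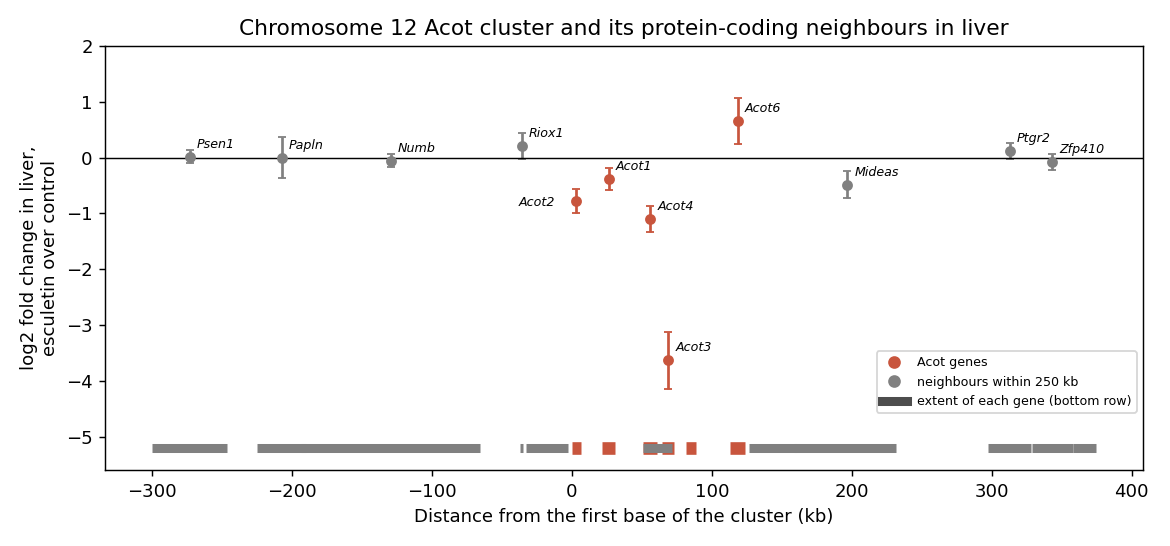
Liver log2 fold change (± 1 SE) of each tested gene in and around the chromosome 12 cluster, plotted at its distance in kb from the first base of the cluster, with the extent of every gene as a bar at the bottom. Acot3, at -3.63, lies far below its neighbours, and the tested genes outside the cluster lie between -0.49 and 0.21.

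Since Acot2, Acot3 and Acot4 did not overlap between the liver groups, the 250 bases before their annotated starts are shown (RefSeq, build GRCm38.p6). Acot3 has 2 listed promoters, and only the first listed is shown. Capitals mark the letters CCAAT and the nuclear receptor half-site AGGTCA, each searched on both strands.
Acot2 (chr12:83987611-83987860, + strand): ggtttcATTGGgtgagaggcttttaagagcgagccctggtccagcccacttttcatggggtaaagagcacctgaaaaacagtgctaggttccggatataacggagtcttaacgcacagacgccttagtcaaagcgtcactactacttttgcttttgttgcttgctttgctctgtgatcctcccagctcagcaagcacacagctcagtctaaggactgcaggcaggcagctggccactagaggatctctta
Acot3 (chr12:84051894-84052143, + strand): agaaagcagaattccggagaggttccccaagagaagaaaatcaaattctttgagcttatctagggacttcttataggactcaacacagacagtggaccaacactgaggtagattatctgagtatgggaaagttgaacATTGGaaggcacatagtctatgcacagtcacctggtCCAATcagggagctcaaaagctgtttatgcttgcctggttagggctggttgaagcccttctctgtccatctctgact
Acot4 (chr12:84038129-84038378, + strand): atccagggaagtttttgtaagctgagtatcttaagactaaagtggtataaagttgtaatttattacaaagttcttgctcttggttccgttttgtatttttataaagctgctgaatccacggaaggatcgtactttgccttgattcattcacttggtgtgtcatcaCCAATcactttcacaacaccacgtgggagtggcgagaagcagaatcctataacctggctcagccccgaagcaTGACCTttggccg

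In the full window of 300 bases (250 before and 50 after the start), Acot3 held 1 half-site with its first base 19 bases into the gene, and Acot4 held 1 that began 13 bases before the start. Acot5 held 2 and Acot12 held 1, while Acot1, Acot2, Acot7 and Acot8 held 0. Of all 32544 RefSeq promoters of that length, 16.2% held the half-site and 37.4% held CCAAT, which Acot8 held at 3 places, Acot3 at 2, and Acot1, Acot2, Acot4 and Acot5 at 1 each. The DR1 element, searched only as a pair of exact AGGTCA half-sites 1 base apart, was in 0.0399% of promoters and in none of these 8. Inexact forms of it were not searched. A match is a description of letters and not evidence of a factor's binding. Acot6 and Acot13 had no entry. Acot3 and Acot5 each had 2 listed promoters, of which only the first listed was searched.

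Other genes of acyl-CoA handling were read from 4 lists. Of 9 further thioesterases and relatives, 7 were tested in liver, 5 above and 2 below 0 with a median log2 fold change of 0.08. The largest differences were those of Acot11 (0.32, SE 0.27), Acnat1 (-0.29, SE 0.14) and Acot9 (0.20, SE 0.26). Of 23 acyl-CoA synthetases, 16 were tested, 9 above and 7 below 0 with a median of 0.01. Acsl3 (-0.72, SE 0.27), Acsl5 (-0.32, SE 0.12) and Acsl1 (-0.19, SE 0.14), which activate long-chain fatty acids, differed most once genes averaging under 1 CPM were set aside, as was done in every list.

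Of 30 PPAR-alpha responsive oxidation genes, all 30 were tested in liver, 23 below and 7 above 0, with a median of -0.08 beside -0.02 over all genes. Fgf21, a fasting hormone of liver, differed most (3.85 ± 0.925 against 0.977 ± 0.708 CPM, log2 -2.0, SE 0.46), followed by Pdk4, which holds back pyruvate oxidation (16.4 to 23.7 CPM in control against 6.38 to 9.48 CPM, log2 -1.42, SE 0.20), and Cyp4a31, a fatty acid omega-hydroxylase (log2 -1.23, SE 0.20). Of 21 genes of peroxisomal oxidation and CoA turnover, 12 were below and 9 above 0 with a median of -0.02. Abcd2, a peroxisomal importer of very long acyl-CoAs, differed by -1.63 (SE 0.44), Nudt7, which degrades peroxisomal CoA, by 0.63 (SE 0.19), and Crat, carnitine acetyltransferase, by -0.56 (SE 0.17).

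Among 12804 other tested liver genes, those whose log2 CPM followed Acot3 most closely over the 6 liver libraries were Cep76, Serpina6, Kcp, Hspg2 and Scd1, with Pearson's r from 0.990 to 0.993. Among the members Acot4 had the highest r with Acot3 (0.965), then Acot2 (0.874) and Acot1 (0.697), and Acot6 the lowest (-0.634). These 6 points fall into 2 treatment groups and share their libraries, so r is only a description of likeness. Scd1, which makes monounsaturated fatty acids, read 10478, 8992 and 9099.6 CPM in control and 3742, 5773 and 3965 CPM in esculetin livers, and like Acot3 had its highest esculetin value in replicate 2.

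In the oxLDL-loaded macrophages the family looked different. Acot2 rose with esculetin and Acot7 fell, while Acot6, Acot8 and Acot13 did not pass the test. Acot3 and Acot12 had 0 counts in all 6 libraries, and Acot4 had 1 count in 1 esculetin library.

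Acot2 read 2.18, 2.58 and 2.53 CPM in control cells and 8.20, 5.11 and 8.64 CPM in esculetin cells, from 42, 48 and 52 against 112, 75 and 155 counts. Every esculetin library was above every control. The means were 2.43 ± 0.220 and 7.32 ± 1.92 CPM (n = 3 each), a 3.01-fold rise (log2 1.59, SE 0.24, adjusted p = 0.000171 by the edgeR quasi-likelihood test). Over all alternatives, edgeR, DESeq2 and limma-voom fits included, the adjusted p ran from 8.38e-10 to 0.00232.

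Acot1 moved the other way at very low counts, with 7, 10 and 6 in control cells and 1, 3 and 0 in esculetin cells, too few to pass the filter. The ratio of esculetin to control was 0.220, with an exact 95% counting interval of 0.0552 to 0.643 that leaves out the spread between libraries. Acot6 read 2.07, 2.58 and 3.31 CPM in control and 2.71, 2.73 and 2.45 CPM in esculetin cells (log2 -0.02, SE 0.26, edgeR adjusted p = 0.956). Within the cluster, Acot2 held 41.3% to 47.2% of the counts in control and 63.0% to 77.9% in esculetin cells, on 89 to 199 cluster counts a library.

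Acot7, the most abundant member in the cells, fell from 150, 169 and 173 CPM in control to 121, 127 and 125 CPM in esculetin libraries. The groups did not overlap, and the means of 164 ± 12.2 and 124 ± 2.99 CPM (n = 3 each) differed 1.32-fold (log2 -0.40, SE 0.08, edgeR adjusted p = 0.00176). That size is under the fold change of 1.5 that the study's criterion asks for. Acot8 read 13.3, 11.5 and 10.8 CPM in control and 7.25, 10.4 and 10.0 CPM in esculetin cells. Snx21, which overlaps Acot8 on the opposite strand, read 33.8 ± 1.78 and 18.2 ± 3.63 CPM in the same groups (log2 -0.90), and its part in the value of Acot8 was not tested. The libraries of Acot8 did not overlap, but its log2 fold change of -0.36 (SE 0.17) missed the threshold (edgeR adjusted p = 0.0864), and over the alternatives the adjusted p ran from 0.0437, with library size as the only scaling, to 0.25.

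Acot13 read 29.3, 26.6 and 27.0 CPM in control and 30.1, 28.1 and 24.5 CPM in esculetin cells, and did not pass the test (log2 -0.00449, SE 0.114, edgeR adjusted p = 0.976). BC005537, whose exons overlap those of Acot13 on the opposite strand, read 178 ± 13.6 CPM in control and 1168 ± 224 CPM in esculetin cells, and whether any of its reads entered the value of Acot13 was not tested.

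**Figure D3:**
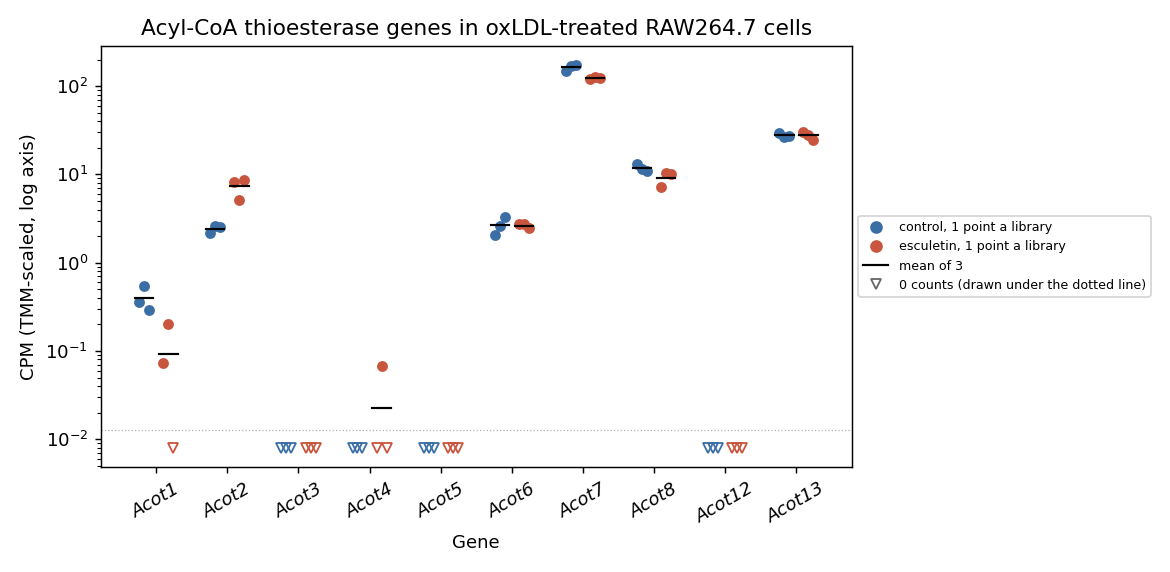
CPM (log axis) of each thioesterase gene in the 3 control and 3 esculetin libraries of oxLDL-loaded RAW264.7 cells, with group means as black lines and libraries at 0 counts as open triangles. Acot2 lies higher and Acot7 lower in all 3 esculetin libraries, and Acot3, Acot5 and Acot12 are at 0 throughout.

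Esculetin moved most genes of these cells: edgeR called 7667 of 13277 (57.7%), 3812 higher (28.7%) and 3855 lower (29.0%). Of the 5 members tested, 2 were called, 1 in each direction, a share of the family that is not above this background. Non-overlapping libraries were likewise common, lower for 33.1% and higher for 31.0% of all tested genes, against 2 and 1 of the 5 members. Of the 8 tested neighbours of the cluster in the cells, 4 were called, among them Numb (log2 0.61, SE 0.10, edgeR adjusted p = 0.000319) and Mideas (log2 -0.63, SE 0.09, edgeR adjusted p = 0.000108).

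Among the further thioesterases, 4 were tested in the cells and 2 were called: Them6 fell (51.4 ± 5.02 to 21.2 ± 2.63 CPM, log2 -1.28, SE 0.12, edgeR adjusted p = 6.81e-06) and Acot11 rose (1.51 ± 0.669 to 4.37 ± 0.649 CPM, log2 1.54, SE 0.31, edgeR adjusted p = 0.00147). Of 13 acyl-CoA synthetases tested, 6 rose and 6 fell. The counts called in each list stand beside 57.7% of all tested genes called, 28.7% higher and 29.0% lower. No list was tested against these shares. Acsl5 fell (log2 -0.89, SE 0.08, edgeR adjusted p = 3.7e-06), and the fatty acid transport proteins Slc27a1 (log2 1.01, SE 0.10, edgeR adjusted p = 6.55e-06) and Slc27a4 (log2 1.33, SE 0.13, edgeR adjusted p = 8.79e-06) rose. Of 17 PPAR-alpha responsive genes tested, 3 rose and 6 fell. Plin2, the coat protein of lipid droplets, rose from 36.6 ± 0.668 to 372 ± 126 CPM (log2 3.34, SE 0.20, edgeR adjusted p = 3.39e-07), and the thiolase Acaa1a (log2 -0.76, SE 0.09) and the isomerase Eci1 (log2 -0.82, SE 0.12) fell, with edgeR adjusted p-values of 3.37e-05 and 0.000184. Of 18 peroxisomal and CoA turnover genes tested, 4 rose and 6 fell, with Acaa1a, Abcd3 (log2 0.53, SE 0.08) and Pank4 (log2 -0.79, SE 0.13) the lowest in p.

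**Figure D4:**
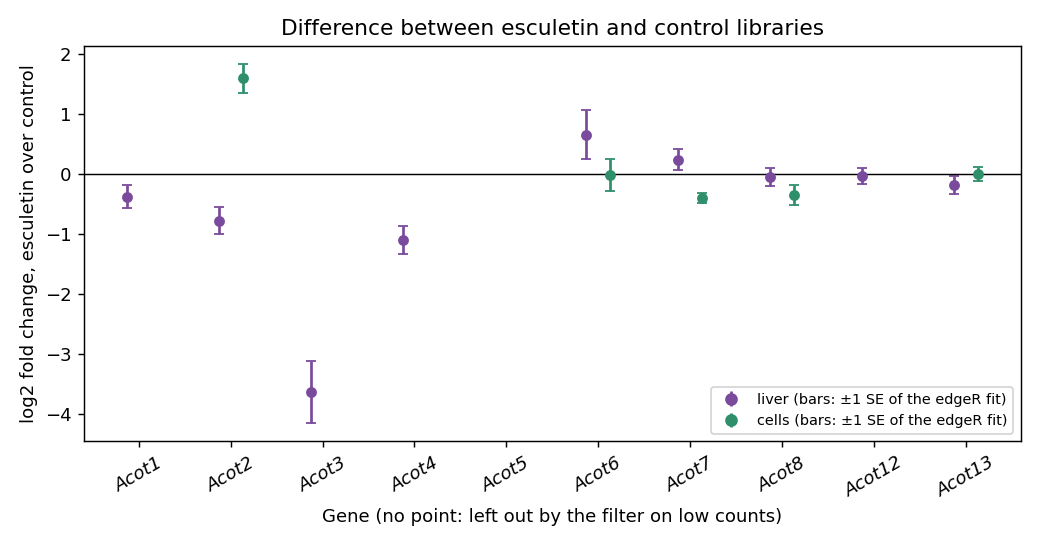
log2 fold change of esculetin over control (± 1 SE of the edgeR fit) for each thioesterase gene in liver and in RAW264.7 cells; genes left out by the filter on low counts have no point. Acot2 lies at -0.78 in liver and at 1.59 in the cells, and Acot3, at -3.63 in liver, has no value in the cells.

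Which thioesterases each source uses can be read per length, in CPM per kilobase of exon. In control livers the order was Acot13 (29.8 ± 3.88), Acot12 (17.4 ± 0.985), Acot1 (9.87 ± 2.57), Acot7 (9.77 ± 2.18), Acot4 (4.68 ± 1.74), Acot2 (3.27 ± 0.552), Acot3 (2.14 ± 1.2), Acot8 (2.10 ± 0.308) and Acot6 (0.0939 ± 0.0261). Acot1 and Acot7 overlapped between libraries, as did Acot4 with Acot2, Acot2 with Acot3 and Acot3 with Acot8. The other neighbouring pairs did not overlap.

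In esculetin livers the order was Acot13 (26.1), Acot12 (17), Acot7 (11.5), Acot1 (7.60), Acot4 (2.17), Acot8 (2.01), Acot2 (1.91), Acot3 (0.174) and Acot6 (0.151), all in CPM per kilobase. Acot4 overlapped with Acot8, Acot8 with Acot2 and Acot3 with Acot6, and the other neighbouring pairs did not overlap. In both groups Acot13 and Acot12 were the highest. Opposite-strand genes share 74.5% of the exon bases of Acot13 and 49.4% of those of Acot8. With the strand setting not given, the ranks of both, in liver and in the cells, are uncertain.

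In control cells Acot7 led with 57.1 ± 4.26 CPM per kilobase, followed by Acot13 (16.4 ± 0.856), Acot8 (1.41 ± 0.152), Acot2 (1.01 ± 0.0916), Acot6 (0.414 ± 0.0967) and Acot1 (0.101 ± 0.0322), and no neighbouring pair overlapped. With esculetin, Acot2 (3.05 ± 0.80) stood above Acot8 (1.10 ± 0.204), and the other genes kept the order of the control cells.

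**Figure D5:**
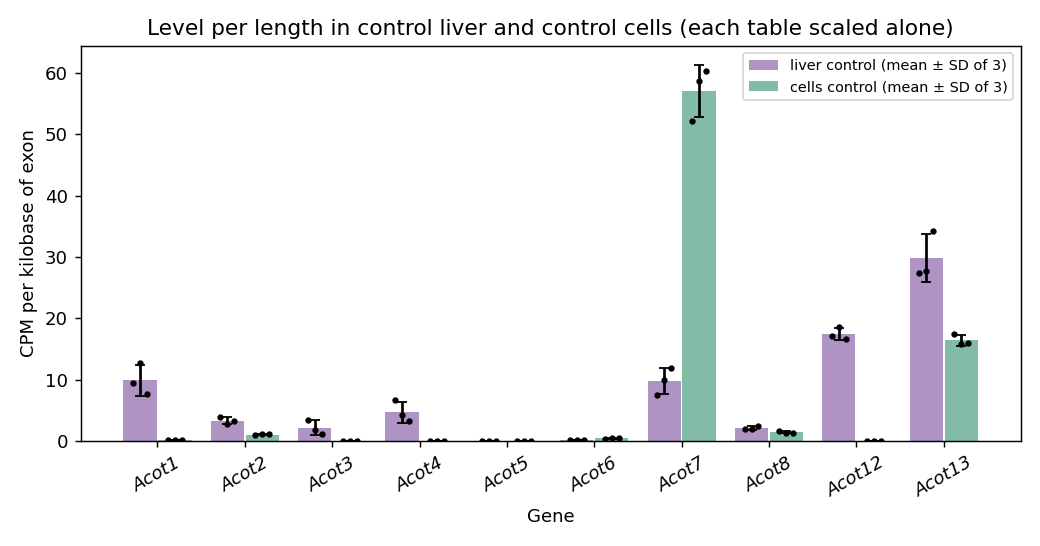
Level of each thioesterase gene in CPM per kilobase of exon in control liver and control cells, as bars from 0 with SD over 3 libraries and each library as a black point. Acot13 and Acot12 lead in liver (29.8 and 17.4), Acot7 leads in the cells (57.1), and Acot3, Acot4 and Acot12 are at 0 in the cells.

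Control liver and control cells were compared in 1 model of all 12 libraries. Tissue, culture, diet and preparation differ together between them and cannot be told apart. Of 15709 genes tested, edgeR called 84.9%, 42.8% higher and 42.1% lower in liver, so a call is the rule rather than the exception here. With library size as the only scaling, 29.9% of the calls were higher in liver, beside 50.4% with TMM, and the members kept their directions but not their sizes. The log2 differences of Acot2, Acot8 and Acot13 were then 1.70, 0.568 and 0.855, in place of the 3.05, 1.94 and 2.23 given next, and those of Acot6 and Acot7 were -2.12 and -2.56, in place of -0.76 and -1.18.

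Acot1, Acot3, Acot4 and Acot12 passed the filter on low counts only through the livers, where they are high, so their calls are no test and they are given as values. Acot1 read 61.9 ± 15.5 CPM in control liver and 0.247 ± 0.0797 CPM in control cells on the joint scale, from 23 counts in the 3 cell libraries. Acot2 was higher in liver by 3.05 on the log2 scale (SE 0.25, edgeR adjusted p = 5.33e-09), Acot13 by 2.23 (SE 0.14, edgeR adjusted p = 1.48e-10) and Acot8 by 1.94 (SE 0.16, edgeR adjusted p = 5.31e-09). The part of overlapping opposite-strand genes in the values of Acot13 and Acot8 was not tested. Acot3, Acot4 and Acot12 had 0 counts in the control cells, so only a lower bound can be given. Against a floor of 3 counts per cell library, their mean levels were at least 143-fold, 579-fold and 1502-fold higher in liver, and the lowest liver library gave bounds of 76.2, 377 and 1366. These bounds hold on the TMM scale only. With library size as the only scaling, the median log2 difference of all genes was -1.40 in place of -0.03. The mean of Acot3 is raised by control liver replicate 1, its highest library.

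Acot7 was lower in liver than in the cells (log2 -1.18, SE 0.15, edgeR adjusted p = 1.05e-06), in all 3 liver against all 3 cell libraries. Acot6 was also lower in liver (log2 -0.76, SE 0.33, edgeR adjusted p = 0.0439), but this call was lost in 11 of its alternatives, with adjusted p-values from 0.0551 to 0.176. Among these were fits without control cell replicate 2 or 3, esculetin cell replicate 2, control liver replicate 1 or 3, or any 1 of the 3 esculetin livers.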

How the data were processed

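The authors deposited 1 table of raw counts per gene for the liver and 1 for the cells, with no column left unused (0). Per the labels and the study's methods, reads were aligned with HISAT2 2.2.1 to GRCm39 and counted with featureCounts. Strand setting, multi-mapping and annotation release are not given in the sources used here. Symbols and exons came from GENCODE vM39, in which 54749 identifiers matched and 608 did not.

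Each table was fitted with edgeR 4.0.16 (R 4.3.3; filterByExpr, TMM, quasi-likelihood test, two-sided, Benjamini-Hochberg over all tested genes, called under 0.05). Control liver and control cells were compared in a 4-group fit of all libraries. Dividing the size of a log2 fold change by the root of its F statistic gave the SE. Exact permutation of 3 against 3 libraries cannot go below p = 0.1. Levels per length used the union of annotated exons. Intervals and floors (3 counts) cover counting error only. DESeq2 1.42.0 and limma 3.58.1 gave alternatives. log2 CPM used a prior count of 2.

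The members, lists and tests were chosen with earlier results of these data known. Named were all members, in each other list the 3 called genes of smallest p in the cells and the 3 largest liver differences at a mean of at least 1 CPM, neighbours within 250 kb, and the 5 liver genes most correlated with Acot3. Genes that overlap a member were added after their values were seen. Replicate pairs all differed by more than sampling noise. Same-numbered control and esculetin libraries did not deviate together in every pair (r 0.140, -0.00529 and 0.103 in liver; 0.165, -0.0298 and 0.0796 in cells), so no block was used.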

Additional observations from a re-analysis of the deposited data

Results flagged for a closer look

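Acot2 differed in opposite directions in the 2 sources. Every esculetin liver library was below every control liver library (log2 fold change -0.778, given as a description), and every esculetin cell library was above every control cell library (log2 fold change 1.59). The difference between the 2 effects was not tested, since the liver contrast selected the family.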

How the results depend on the processing

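In liver, 1 member was called as reported (Acot3, among 11 genes in all). The count was 0 with library size only (0 genes in all, 1149 at an unadjusted p under 0.05) and with limma-voom (11 in all), 3 without a filter (339 in all) and with the study's thresholds, unadjusted p under 0.05 and fold change over 1.5, put on a limma-voom fit (499), 2 with DESeq2 (98) and 2 with a replicate block (123), and it ran from 0 to 2 as each library was left out (0 to 31 in all). Where 2 were called they were Acot3 and Acot4, and where 3 were called also Acot2. The cause was not tested. In the cells, 2 members were called as reported, with a replicate block too, and as each library was left out (2 to 2), but 1, Acot2, with those thresholds on limma-voom (5041 genes in all against 7667) and 3, with Acot8 added, with library size only. Between control liver and control cells, 8 to 9 of the 9 tested members were called in all fits, beside 84.9% of 15709 genes in the main fit. The 4 members that passed the filter only through liver are among them, and their calls are no test. With upper quartile factors and library size only the median of all genes moved from -0.03 to -0.22 and -1.40. No called member changed direction in any fit. Of the members' log2 fold changes in liver, 134 of 134 alternatives moved by less than 1 SD of the difference between single libraries. That SD came from the SDs of log2(CPM + 0.1) in both groups. Fits that left out 1 of 3 libraries could hardly move a value that far, so this share does not measure stability. In those fits Acot8 in liver ran from -0.12 to 0.0498 and Acot12 from -0.177 to 0.0628. In the cells 73 of 75 alternatives kept their side of the threshold, and between sources 169 of 180. The 180 include those of Acot1, Acot3, Acot4 and Acot12, whose calls are no test. The 11 that did not keep it were all those of Acot6. By longest transcript in place of all exons, 4 of 31 ranks moved by 1 place. The block was not used because same-numbered libraries shared only a number; liver and cell replicate 2 did not correlate best with their own number. Depth limits Acot1 in the cells and Acot6 in liver.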
